A study of Homo sapiens with 6 samples.

Results

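The genes that make cholesterol, govern its synthesis through SREBP2 and bring it into the cell were followed in SV-HUC-1 cells exposed to 2,6-dichloro-1,4-benzoquinone (DCBQ). They were taken from a fixed list of 28 symbols, and all 28 were found among the 60624 Ensembl gene identifiers of the RNA table. Of the 28, 18 encode synthesis enzymes, 4 act in SREBP2 control, 3 are lipoprotein receptors or their regulator, and 3 move cholesterol inside the cell. SV-HUC-1 is an established human urothelial epithelial line immortalised with SV40, and DCBQ is a halogenated quinone that arises when drinking water is disinfected. Poly(A)-selected RNA was sequenced from 3 control libraries (SV-HUC-1 cells in blank solution) and 3 DCBQ libraries (SV-HUC-1 cells in DCBQ), both after 3 days. The labels give no DCBQ concentration, and they do not tell whether the replicates were cultured separately. The p-values therefore reflect how far these 6 libraries scatter, which may be technical scatter. Both groups share the SV40 background and are a single line, and because whole cultures were measured, fewer cells of a kind and less RNA per cell cannot be told apart.

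Values are TPM, which scales reads for gene length and for the library total, so levels of different genes can be compared, but sequencing depth is unknown. Mitochondrially encoded genes took 20.9 to 22.2% of TPM in control and 27.96 to 28.8% in DCBQ, which lowers every other gene's share in the DCBQ libraries. The median of the 16734 tested genes lay at -0.21 on the log2 scale, so each member is also given under other scalings. Of 8 urothelial and epithelial markers 7 averaged at least 1 TPM, with summed levels of 2880 to 3030 TPM in control and 4690 to 4940 in DCBQ. KRT5, KRT8, KRT18, KRT19 and GATA3 were called higher. EPCAM (238 TPM on average in control and 236 in DCBQ) and CDH1 (189 and 175) were not called. The basal factor gene TP63 was at 0 to 0.148 TPM. Of 6 fibroblast markers 4 were listed at 0 in every library (COL1A2, COL3A1, DCN and LUM). The 6 together summed to 6.84 to 7.80 TPM in control and 14.8 to 16.5 in DCBQ. COL1A1 made up most of that sum and was called higher, from 6.72 ± 0.55 to 15.1 ± 1.1 TPM (SD, n = 3 per group, limma adjusted p = 6.83e-05). PDGFRB averaged 0.724 TPM in control and 0.735 in DCBQ. The 4 leukocyte markers summed to 0.876 to 1.3 TPM in control and 2.03 to 2.47 in DCBQ, without overlap, with PTPRC at no more than 0.0676. Of these CD14 was called higher, from 0.939 ± 0.29 to 2.18 ± 0.27 TPM (SD, n = 3 per group, limma adjusted p = 0.0132). The 4 endothelial markers summed to 6.53 to 7.45 TPM in control and 8.52 to 14.7 in DCBQ, but those tested moved in opposite directions. CDH5 was higher, from 4.24 ± 0.59 to 10.6 ± 3.2 TPM (limma adjusted p = 0.00171), and KDR was lower, from 2.63 ± 0.14 to 0.390 ± 0.034 TPM (limma adjusted p = 0.000288). The part of these marker shifts in the results was not tested.

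Cholesterol is built from acetyl-CoA through mevalonate, farnesyl diphosphate, squalene and lanosterol, mostly on the endoplasmic reticulum. When sterol in that membrane is low, SCAP escorts the precursor of the transcription factor SREBP2 to the Golgi, where proteases free its active part. When sterol is plentiful, the INSIG proteins hold SCAP back and transcription of synthesis and uptake genes falls. INSIG1 is itself a target of SREBP2, which closes a feedback loop, and cells can also take up cholesterol in lipoproteins and release it from lysosomes through NPC2 and NPC1.

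Upstream sequences of the members are shown because SREBP2 acts at promoters with the cofactors NF-Y, which binds CCAAT, and SP1, which binds GC boxes. RefSeq promoter windows (build GRCh38.p14) were matched by symbol for 25 of the 28 members, and those of ACAT2, FDFT1 and SQLE were not matched. Of several windows for 1 gene, the one nearest to the GENCODE 29 gene start was used. The 250 bases before the RefSeq start of that window were searched on both strands. The sequences below belong to the 4 matched members with the largest rises and to SREBF2, which encodes SREBP2. They lie at chr5:43313413-43313662, minus strand for HMGCS1, chr7:155297628-155297877, plus strand for INSIG1, chr4:165327419-165327668, plus strand for MSMO1, chr10:1049120-1049369, minus strand for IDI1 and chr22:41832855-41833104, plus strand for SREBF2. Capitals mark CCAAT on either strand, which reads as ATTGG when it lies on the other one, and the sequence TCACNCC, a core of the sterol regulatory element, and TCACNCCAC, a longer form that contains it.
HMGCS1: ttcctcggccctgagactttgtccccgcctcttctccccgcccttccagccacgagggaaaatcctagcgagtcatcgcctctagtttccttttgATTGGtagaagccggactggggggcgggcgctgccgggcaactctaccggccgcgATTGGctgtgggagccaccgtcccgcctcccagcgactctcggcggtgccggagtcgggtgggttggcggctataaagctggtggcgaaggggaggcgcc
INSIG1: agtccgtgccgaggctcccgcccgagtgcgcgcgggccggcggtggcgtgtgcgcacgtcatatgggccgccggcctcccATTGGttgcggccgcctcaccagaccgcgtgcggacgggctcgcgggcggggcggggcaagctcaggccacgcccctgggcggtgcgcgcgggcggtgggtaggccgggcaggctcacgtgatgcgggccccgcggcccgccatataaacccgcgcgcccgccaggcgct
MSMO1: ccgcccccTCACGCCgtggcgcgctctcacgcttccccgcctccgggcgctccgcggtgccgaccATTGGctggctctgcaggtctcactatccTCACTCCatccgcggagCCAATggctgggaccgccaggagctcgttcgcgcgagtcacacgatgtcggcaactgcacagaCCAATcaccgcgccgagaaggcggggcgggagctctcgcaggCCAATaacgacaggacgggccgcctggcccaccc
IDI1: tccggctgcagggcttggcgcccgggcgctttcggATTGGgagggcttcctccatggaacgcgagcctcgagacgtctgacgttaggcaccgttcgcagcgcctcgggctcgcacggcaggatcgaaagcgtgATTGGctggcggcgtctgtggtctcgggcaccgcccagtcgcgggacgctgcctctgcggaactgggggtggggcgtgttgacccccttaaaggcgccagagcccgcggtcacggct
SREBF2: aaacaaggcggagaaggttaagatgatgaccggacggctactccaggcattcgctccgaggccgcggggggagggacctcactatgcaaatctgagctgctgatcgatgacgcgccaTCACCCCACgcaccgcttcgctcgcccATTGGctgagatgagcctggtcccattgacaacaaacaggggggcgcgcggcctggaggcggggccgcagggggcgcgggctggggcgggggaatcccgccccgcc

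CCAAT was found upstream of 17 of the 25 matched members, against 32.6% of the 15745 windows of tested genes and 32.0% of all 35116 windows. Among the matched members, it was present in 9 of 9 that rose in DCBQ, in 4 of 9 that fell and in 4 of 7 that did not pass the test described next. Some windows lay inside the annotated gene. Those of DHCR7 (to 71449293, gene start 71452868) and SCAP (to 47476191, gene start 47477126) did. Windows of CYP51A1 (to 92134727, gene start 92134803) and NPC1 (to 23586756, gene start 23586898) did as well. All of these genes fell and lacked CCAAT. VLDLR, whose window lay before its gene, was the only other member that fell and lacked it. Those of MVK and NPC2, which rose and held CCAAT, lay inside too, as did those of PMVK, EBP and SC5D, which did not pass. The counts by direction therefore do not compare like stretches. MVK and NSDHL held the most copies, 5 each, and MSMO1 held 4. TCACNCC was found upstream of 5 members (MVK, MSMO1, NSDHL, SREBF2 and NPC2), against 13.8% of the windows of tested genes. TCACNCCAC was found once, in the SREBF2 window 133 bases before the start, against 0.9% of the windows of tested genes. The SP1 box GGGCGG was found in 23 members, against 63.5% of those windows, and the E-box CACGTG in SC5D, SCAP and INSIG1, against 8.3%. A match is a stretch of letters and not a measured binding site, and elements outside these 250 bases were not searched.

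Exposure to DCBQ went with higher levels of most synthesis enzymes, led by HMGCS1 and by the feedback gene INSIG1, and with lower SCAP, VLDLR and NPC1. All 28 members passed the filter of a mean of at least 1 TPM, and each was read from a limma fit of log2(TPM + 1) over all tested genes, with a call at an adjusted p under 0.05. Of the 28, 12 were higher, 9 were lower and 7 did not pass. Over all tested genes 13.4% were higher and 39.5% were lower, so the members held more higher calls than the background and a share of lower calls near it. Control and DCBQ libraries were fully separated for 21 members, against 61.2% of all tested genes. The median difference was 0.09 for the members and 0.28 for the 18 enzymes, against the median of -0.21 for all tested genes. The 12 rises were called under each of the 4 scalings tried, whereas 3 of the 9 falls were (SCAP, VLDLR and NPC1). The 3 other scalings moved the median of all tested genes up, which favours calls of rises over calls of falls.

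**Figure D1:**
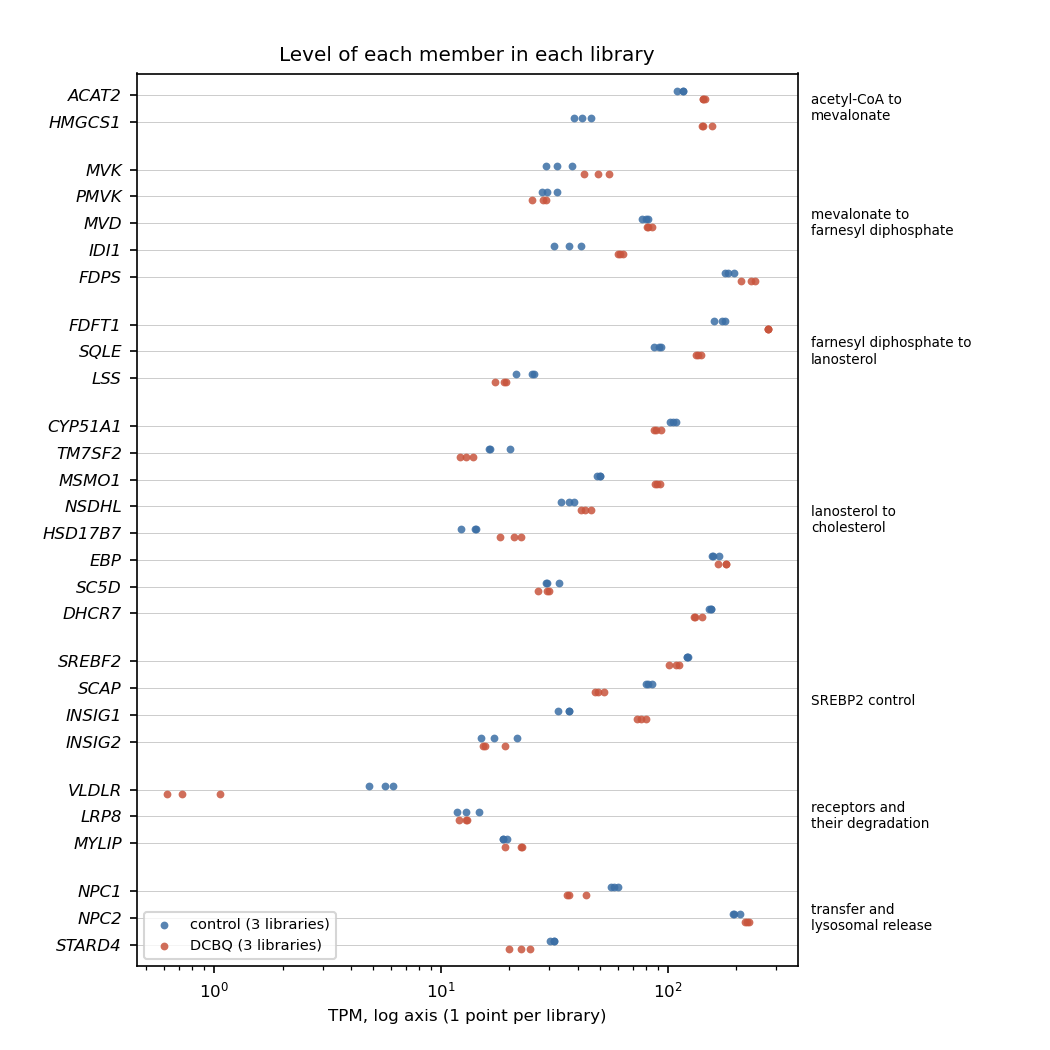
TPM of each of the 28 members (rows, in pathway order) on a log axis, with 1 point per library, 3 control and 3 DCBQ. HMGCS1 and INSIG1 sit clear of the control points to the right, VLDLR far to the left, and the means of the other genes differ by at most 1.80-fold.

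Together, the 18 enzymes summed to 1340, 1368 and 1410 TPM in the control libraries and to 1754, 1733 and 1803 TPM in the DCBQ libraries, a 1.28-fold higher mean. All 3 DCBQ sums lay above all 3 control sums. Of the 18 enzymes 10 rose, 4 fell and 4 did not pass, against 13.4% higher and 39.5% lower among all tested genes.

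The first steps join acetyl-CoA units, and both measured genes rose. HMGCS1 encodes cytosolic HMG-CoA synthase, which makes the direct precursor of mevalonate (chromosome 5, 43289395 to 43313512, minus strand). It was at 45.7, 38.4 and 41.7 TPM in control and at 141, 143 and 156 TPM in DCBQ. The groups were far apart, with a 3.49-fold higher mean in DCBQ (log2 difference 1.78, SE 0.072, limma adjusted p = 1.02e-06). It was the largest rise among the members, and it moved HMGCS1 from the tenth to the fourth most abundant of the 18 enzymes by mean TPM. ACAT2, the cytosolic thiolase that makes acetoacetyl-CoA, was at 116, 109 and 117 TPM in control and 142, 142 and 145 TPM in DCBQ. This smaller rise was 1.26-fold (log2 difference 0.33, SE 0.044, limma adjusted p = 0.000456). ACAT2 overlaps 558 bases of the abundant TCP1 on the opposite strand, and without a stated strand setting reads there cannot be told apart. The same limit holds for MVK with MMAB (620 bases), FDPS with RUSC1-AS1 (3804), IDI1 with IDI2-AS1 (5050), SREBF2 with SREBF2-AS1 (1587), VLDLR with VLDLR-AS1 (21526) and NPC2 with ISCA2 (458).

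Of the 5 genes from mevalonate to farnesyl diphosphate, MVK, IDI1 and FDPS rose and PMVK and MVD did not pass. Mevalonate kinase, MVK, was at 32.3, 28.99 and 37.6 TPM in control and 42.8, 54.9 and 49.0 TPM in DCBQ. The libraries of each group spread widely but did not overlap, and the mean was 1.48-fold higher (log2 difference 0.55, SE 0.115, limma adjusted p = 0.00408). IDI1, the isomerase that makes dimethylallyl diphosphate, was at 36.8, 31.5 and 41.3 TPM in control and 61.7, 60.4 and 63.6 TPM in DCBQ. The DCBQ libraries were tightly grouped above the control range, 1.69-fold higher on average (log2 difference 0.75, SE 0.092, limma adjusted p = 0.000257). FDPS, farnesyl diphosphate synthase, was the most abundant enzyme in control at 178, 195 and 184 TPM and was at 233, 211 and 242 TPM in DCBQ (1.23-fold, limma adjusted p = 0.00386). Reads of FDPS could be shared with 8 annotated pseudogene copies, none of which reached a mean of 1 TPM.

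The kinase and decarboxylase that act between MVK and IDI1 were the pair that did not pass. PMVK, phosphomevalonate kinase, was at 27.9, 29.3 and 32.3 TPM in control and 28.2, 25.3 and 28.9 TPM in DCBQ. Its groups overlapped, with a log2 difference of -0.12 (95% interval -0.30 to 0.07). MVD, the decarboxylase that yields isopentenyl diphosphate, was at 79.9, 76.7 and 82.0 TPM in control and 81.7, 81.2 and 84.6 TPM in DCBQ, again overlapping (log2 difference 0.05, 95% interval -0.06 to 0.16). MVD passed the test under each of the 3 other scalings, at 0.19 to 0.29.

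The genes that commit farnesyl diphosphate to squalene rose, and the cyclase that follows was lower. FDFT1, squalene synthase, was at 160, 174 and 178 TPM in control and 276, 275 and 276 TPM in DCBQ. All DCBQ libraries lay near 1 value, 1.61-fold above the control mean (log2 difference 0.69, SE 0.049, limma adjusted p = 1.56e-05), and FDFT1 replaced FDPS as the most abundant of the enzymes. SQLE, squalene epoxidase, an oxygen-requiring step, was at 86.8, 92.7 and 91.5 TPM in control and 133, 136 and 139 TPM in DCBQ. The groups were well separated, by 1.51-fold (log2 difference 0.59, SE 0.046, limma adjusted p = 2.52e-05). LSS, lanosterol synthase, was at 21.5, 25.1 and 25.7 TPM in control and 17.3, 19.4 and 18.9 TPM in DCBQ, 1.30-fold lower without overlap (log2 difference -0.36, limma adjusted p = 0.00995). That call ended under each of the 3 other scalings, where the LSS difference was -0.23 to -0.09. The ratio of HMGCS1 to LSS within a library does not depend on a library-wide scale, and it was 2.13, 1.53 and 1.62 in control and 8.18, 7.35 and 8.25 in DCBQ. HMGCS1 alone was 3.49-fold higher, so the ratio does not by itself show a fall of LSS.

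Of the 8 genes from lanosterol to cholesterol, MSMO1, NSDHL and HSD17B7 rose, CYP51A1, TM7SF2 and DHCR7 were lower, and EBP and SC5D did not pass. The 3 that rose act in succession in removing the pair of methyl groups at carbon 4 of the sterol ring. MSMO1, the methyl oxidase of that complex (chromosome 4, 165327623 to 165343160), was at 50.3, 50.3 and 48.9 TPM in control and 87.5, 89.7 and 91.9 TPM in DCBQ. Both groups were tight and the mean was 1.80-fold higher (log2 difference 0.84, SE 0.047, limma adjusted p = 4.71e-06). NSDHL, the dehydrogenase and decarboxylase, was at 38.3, 36.5 and 33.9 TPM in control and 45.9, 41.3 and 42.9 TPM in DCBQ. Its rise of 1.20-fold (log2 difference 0.25, limma adjusted p = 0.0145) was the smallest among the enzymes that passed upward, and without control replicate 3 the adjusted p was 0.0524. HSD17B7, the keto reductase, was the least abundant enzyme in control at 12.3, 14.1 and 14.2 TPM and was at 18.2, 22.5 and 20.9 TPM in DCBQ (1.52-fold, limma adjusted p = 0.00187). One of its 2 annotated pseudogene copies averaged 7.98 TPM, so reads could be split between them.

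The 3 lower genes in this stretch moved little, and none of their calls held once libraries were scaled by median of ratios or quantile normalized. CYP51A1, the lanosterol demethylase, was at 102, 108 and 105 TPM in control and 88.3, 86.6 and 92.9 TPM in DCBQ (log2 difference -0.23, limma adjusted p = 0.00403). After median-of-ratios scaling CYP51A1 stood at 0.006, so the direction itself turned. TM7SF2, a sterol reductase at carbon 14, was at 16.2, 16.4 and 20.1 TPM in control and 13.9, 12.1 and 12.8 TPM in DCBQ (log2 difference -0.41, limma adjusted p = 0.0110), and it stayed just past the threshold without mitochondrially encoded genes (adjusted p = 0.0489). DHCR7, which reduces 7-dehydrocholesterol in the last step of one branch, was at 151, 155 and 154 TPM in control and 131, 141 and 130 TPM in DCBQ (log2 difference -0.20, limma adjusted p = 0.00764). The DHCR7 difference was 0.0449 after median-of-ratios scaling, and an expressed antisense gene shares 3484 bases with it. EBP, the sterol isomerase, was at 156, 159 and 169 TPM in control and 181, 166 and 179 TPM in DCBQ, overlapping (log2 difference 0.12, limma adjusted p = 0.0805). EBP passed upward under each of the 3 other scalings (0.18 to 0.36) and without DCBQ replicate 2 (adjusted p = 0.0311). SC5D, the desaturase before DHCR7, was at 28.9, 29.2 and 33.0 TPM in control and 29.9, 26.7 and 29.4 TPM in DCBQ, with an interval of the log2 difference from -0.26 to 0.10.

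**Figure D2:**
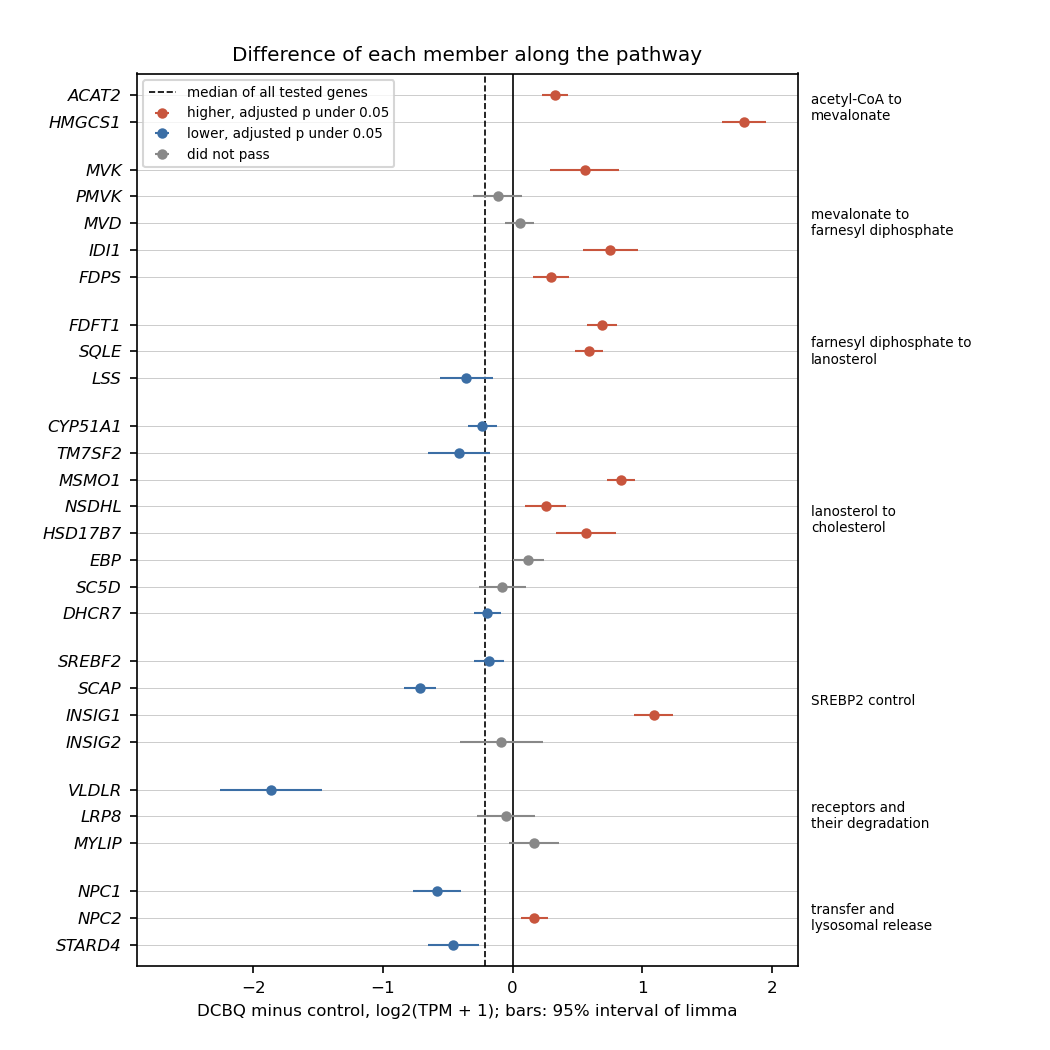
Difference between DCBQ and control for each member on the log2(TPM + 1) scale, with the 95% interval of the limma fit, in pathway order; the solid line marks 0 and the dashed line the median of all tested genes at -0.21. The rises reach 1.78 for HMGCS1 and 1.09 for INSIG1, and the 4 lower enzymes lie between -0.41 and -0.20.

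Among the SREBP2 regulators, INSIG1 rose and SCAP fell, while SREBF2 was slightly lower and INSIG2 did not pass. INSIG1, the sterol-dependent anchor that retains SCAP (chromosome 7, 155297776 to 155310235), was at 32.9, 36.7 and 36.7 TPM in control and 73.1, 76.2 and 79.9 TPM in DCBQ. Every DCBQ library lay far above the control range (2.16-fold, log2 difference 1.09, SE 0.064, limma adjusted p = 6.22e-06). INSIG2, its paralog, which is not under the same feedback, was at 21.6, 15.05 and 17.1 TPM in control and 19.1, 15.3 and 15.6 TPM in DCBQ. The INSIG2 groups overlapped and the interval of the log2 difference was wide, from -0.41 to 0.23. SCAP, the escort of SREBP2 (chromosome 3, 47413694 to 47477126, minus strand), was at 81.6, 84.8 and 80.3 TPM in control and 52.1, 49.4 and 47.9 TPM in DCBQ. It was 1.65-fold lower with a gap between the groups (log2 difference -0.71, SE 0.053, limma adjusted p = 1.99e-05), and still lower under the 3 other scalings (-0.58 to -0.48).

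SREBF2 itself was at 121, 121 and 122 TPM in control and 101, 108 and 112 TPM in DCBQ (log2 difference -0.18, SE 0.050, limma adjusted p = 0.0159). The fall is near the median of all tested genes, its call was lost under the 3 other scalings and without the variance trend (adjusted p = 0.0600), and its direction turned after median-of-ratios scaling (0.06). The ratio of INSIG1 to SREBF2 within a library was 0.272, 0.303 and 0.300 in control and 0.724, 0.703 and 0.713 in DCBQ. The mean ratio was 2.44-fold higher in DCBQ, with no overlap between the groups. INSIG1 alone was 2.16-fold higher, so the ratio does not by itself show a fall of SREBF2.

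Of the receptors and their regulator, VLDLR fell and LRP8 and MYLIP did not pass. VLDLR encodes the very low density lipoprotein receptor (chromosome 9, 2621834 to 2660053) and was the least abundant member. It was at 6.16, 4.79 and 5.63 TPM in control and 0.721, 1.06 and 0.616 TPM in DCBQ. It was 6.91-fold lower by the ratio of means, the largest change in either direction among the members (log2 difference -1.86, SE 0.171, limma adjusted p = 5.93e-05). Its mean in DCBQ was below 1 TPM, so VLDLR passed the filter of a mean of at least 1 TPM through its control libraries. At this low level the log2 difference depends on the pseudocount, and it was -2.67 with 0.1 and -0.86 with 5, called in both. LRP8, a related receptor, was at 14.7, 12.9 and 11.8 TPM in control and 12.9, 12.02 and 12.8 TPM in DCBQ. Those libraries overlapped, with an interval from -0.28 to 0.17. MYLIP, the ubiquitin ligase that targets lipoprotein receptors for degradation, was at 18.7, 19.4 and 18.7 TPM in control and 19.1, 22.8 and 22.5 TPM in DCBQ. It did not pass as deposited (log2 difference 0.17, limma adjusted p = 0.136), but did under the 3 other scalings (0.30 to 0.44) and without DCBQ replicate 1 (adjusted p = 0.0240).

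The genes that release and move cholesterol went both ways, with NPC1 and STARD4 lower and NPC2 higher. NPC1, the lysosomal membrane protein that exports cholesterol (chromosome 18, 23506184 to 23586898, minus strand), was at 56.3, 60.1 and 57.7 TPM in control and 36.6, 43.4 and 35.7 TPM in DCBQ. It was 1.51-fold lower (log2 difference -0.58, SE 0.080, limma adjusted p = 0.000465), and the difference was -0.45 to -0.35 under the 3 other scalings with the call kept. NPC1 overlaps 25624 bases of RMC1 on the opposite strand, which averaged 33.1 TPM. NPC2, the soluble lysosomal protein that hands cholesterol to NPC1, was at 193, 196 and 208 TPM in control and 229, 218 and 223 TPM in DCBQ. Its small rise of 1.12-fold (log2 difference 0.17, limma adjusted p = 0.0134) had an adjusted p of 0.0541 without control replicate 1 and 0.0663 without the variance trend. STARD4, a cytosolic sterol carrier and a known SREBP2 target, was at 30.1, 31.3 and 31.5 TPM in control and 19.9, 22.6 and 24.7 TPM in DCBQ. It was 1.38-fold lower (log2 difference -0.46, limma adjusted p = 0.00229), and quantile normalization ended the call (adjusted p = 0.0843).

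The choice of scale changed the calls of falls more than those of rises. The 12 rises, down to NPC2 at 0.17, kept their calls in all 4 scalings, while STARD4 at -0.46, TM7SF2 at -0.41 and LSS at -0.36 each lost theirs in at least 1. Each of the 3 other scalings moved the median of all tested genes up, from -0.21 to -0.10 or -0.01, and each of the 12 rises with it. Calls of falls were thus easier to lose than calls of rises, so the contrast does not show that the rises are sturdier. With TPM rescaled after leaving out mitochondrially encoded genes, 15 members were higher and 5 lower, with median-of-ratios scaling 15 and 4, and with quantile normalization 15 and 3. Among the 18 enzymes these counts were 12 and 1, 12 and 0, and 12 and 0, against 10 and 4 as deposited. The gain came from MVD and EBP, and the losses from LSS, CYP51A1, TM7SF2 and DHCR7. Over all genes, 16697 tested in the first of these settings and 16734 in the others, the background moved the same way. Higher calls went from 2247 as deposited to 3033, 3973 and 3814, in the same order of settings. Lower calls went from 6610 to 4929, 3888 and 3966. Median-of-ratios scaling and quantile normalization set the libraries' centres to each other by construction, so the median of all genes was -0.01 under both, and that of the 18 enzymes was 0.51 and 0.39.

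**Figure D3:**
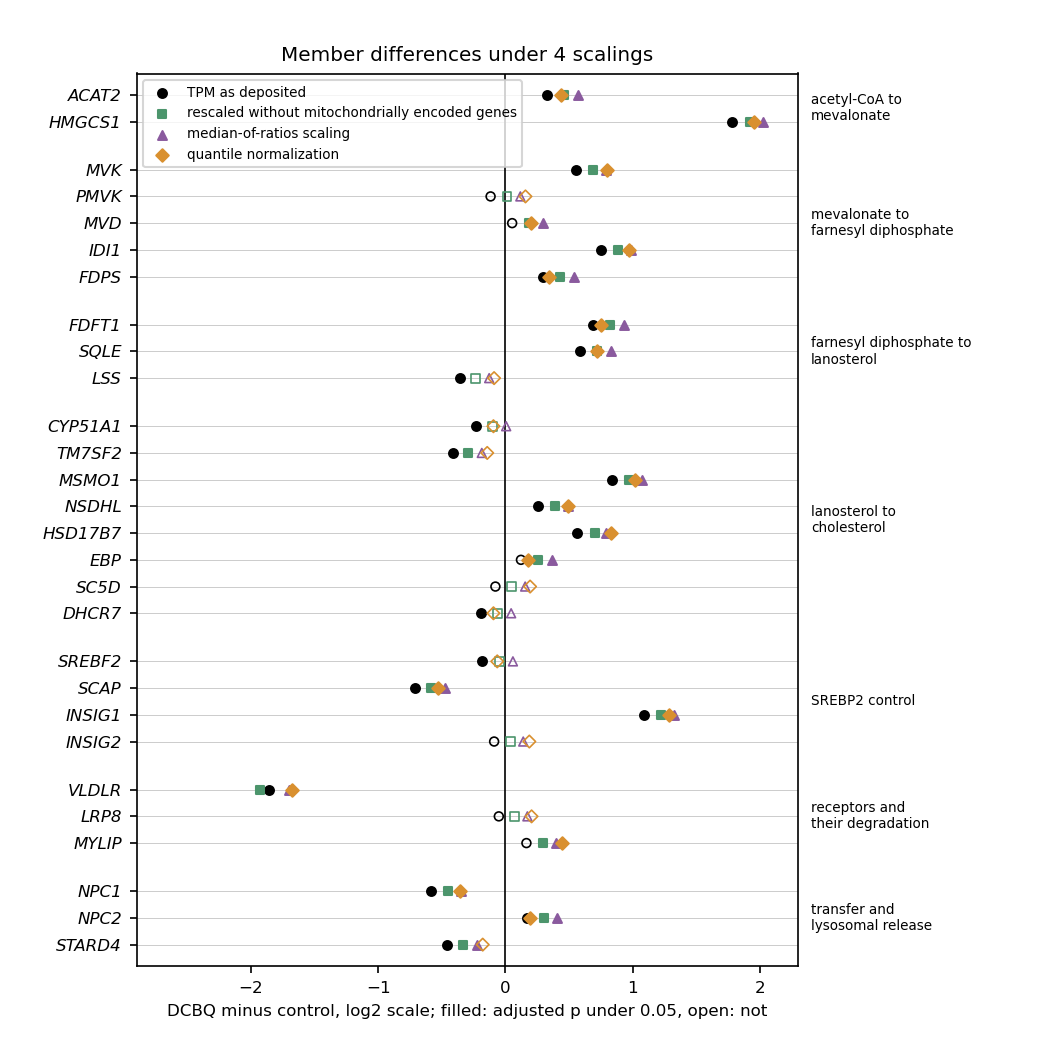
Difference of each member between DCBQ and control on the log2 scale under 4 scalings of the same TPM table, with filled symbols for an adjusted p under 0.05 and open symbols for the rest. Filled symbols on both ends of the axis stay filled, while LSS, CYP51A1, TM7SF2, DHCR7 and SREBF2 turn open under at least 2 of the other scalings.

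Genes around the pathway were read from 7 lists of 85 further genes, 79 of which passed the filter, and 16 of these were higher and 35 lower, against 13.4% higher and 39.5% lower among all tested genes. Among partner enzymes of sterol synthesis, 6 of 10 tested genes were higher and 1 lower, with a median of 0.30. CYB5B, a cytochrome b5 that carries electrons, rose 1.42-fold from 54.8 ± 1.9 to 77.8 ± 0.93 TPM (SD, n = 3 per group, limma adjusted p = 8.27e-05), and its reductase CYB5R3 1.28-fold. EBPL, a relative of EBP, rose 1.79-fold from 21.6 ± 3.1 to 38.6 ± 2.1 TPM. Under each of the 3 other scalings 9 of the 10 genes were higher and 0 lower. Over all tested genes 3033 to 3973 were higher there, against 2247 as deposited.

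A list of 13 genes held the machinery that cleaves SREBP and degrades sterol-regulated proteins, and SREBF1. Of these 11 were lower and 1 higher, with a median of -0.41, against 39.5% lower and 13.4% higher among all tested genes. SREBF1, which encodes the related factor SREBP1, fell 1.67-fold from 75.2 ± 2.1 to 45.1 ± 3.2 TPM (limma adjusted p = 4.27e-05), and ERLIN1, an endoplasmic reticulum scaffold, 1.52-fold. The 1 higher gene was RNF145, a sterol-responsive ubiquitin ligase (1.27-fold). Under the 3 other scalings 7 to 10 of the 13 were lower and 1 was higher. Over all tested genes 3888 to 4929 were lower there, against 6610 as deposited.

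Genes of the isoprenoid side branches were lower in 8 of 14 and higher in 1, against 39.5% and 13.4% of all tested genes. GGPS1, which makes geranylgeranyl diphosphate, fell 1.65-fold from 32.8 ± 1.1 to 19.8 ± 0.81 TPM (limma adjusted p = 6.35e-05), and FNTA, the shared subunit of the prenyltransferases, 1.53-fold. PDSS2, which acts in coenzyme Q synthesis, was the 1 higher gene as deposited. It rose 1.93-fold from 10.3 ± 0.75 to 19.8 ± 1.0 TPM. The list's median was -0.22, against -0.21 for all tested genes. Under each of the 3 other scalings 5 genes were lower and 2 or 3 higher. Over all tested genes 3888 to 4929 were lower and 3033 to 3973 higher there, against 6610 and 2247 as deposited.

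Of the 5 tested genes of esterification, oxysterols and export 2 were lower and 0 higher, against 39.5% and 13.4% of all tested genes. ABCG1, a sterol exporter under LXR control, fell 2.73-fold from 3.24 ± 0.060 to 1.19 ± 0.13 TPM (limma adjusted p = 0.00106), and NR1H2, which encodes LXR-beta, had a difference of -0.32 that lost its call under the other scalings. NCEH1, a cholesteryl ester hydrolase, had a difference of 0.22 (adjusted p = 0.0617) and passed under each of the other scalings and without DCBQ replicate 1 (adjusted p = 0.0290). Sterol transport genes were 3 higher and 5 lower of 17, against the same 13.4% and 39.5% of all tested genes. OSBPL3, an oxysterol-binding protein relative, fell 1.97-fold, GRAMD1A, a carrier from the plasma membrane, 1.81-fold and the endosomal STARD3 from 62.2 ± 1.6 to 46.5 ± 0.88 TPM. GRAMD1B, GRAMD1C and SCP2 were the 3 that rose, GRAMD1B from 1.38 ± 0.50 to 5.36 ± 0.18 TPM.

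Among 8 other lipoprotein receptors and adaptors 1 was higher and 3 lower, against 13.4% higher and 39.5% lower among all tested genes. SCARB1, which takes up cholesteryl ester from high density lipoprotein, rose 1.42-fold from 47.1 ± 3.9 to 66.7 ± 1.5 TPM (limma adjusted p = 0.000456). OLR1, a receptor for oxidised lipoprotein, fell 2.92-fold from 31.3 ± 1.5 to 10.7 ± 1.3 TPM (limma adjusted p = 9.97e-06), and the adaptor DAB2 fell 1.70-fold (adjusted p = 0.0127, and 0.0505 without control replicate 1). Of 12 fatty acid and other SREBP-responsive genes 4 were higher and 5 lower, with a median of -0.20 against -0.21 for all tested genes. ELOVL6, an elongase, rose 2.78-fold, while the desaturase genes SCD and FADS1 fell 1.76-fold and 1.69-fold, each with its direction and call kept under the 3 other scalings.

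**Figure D4:**
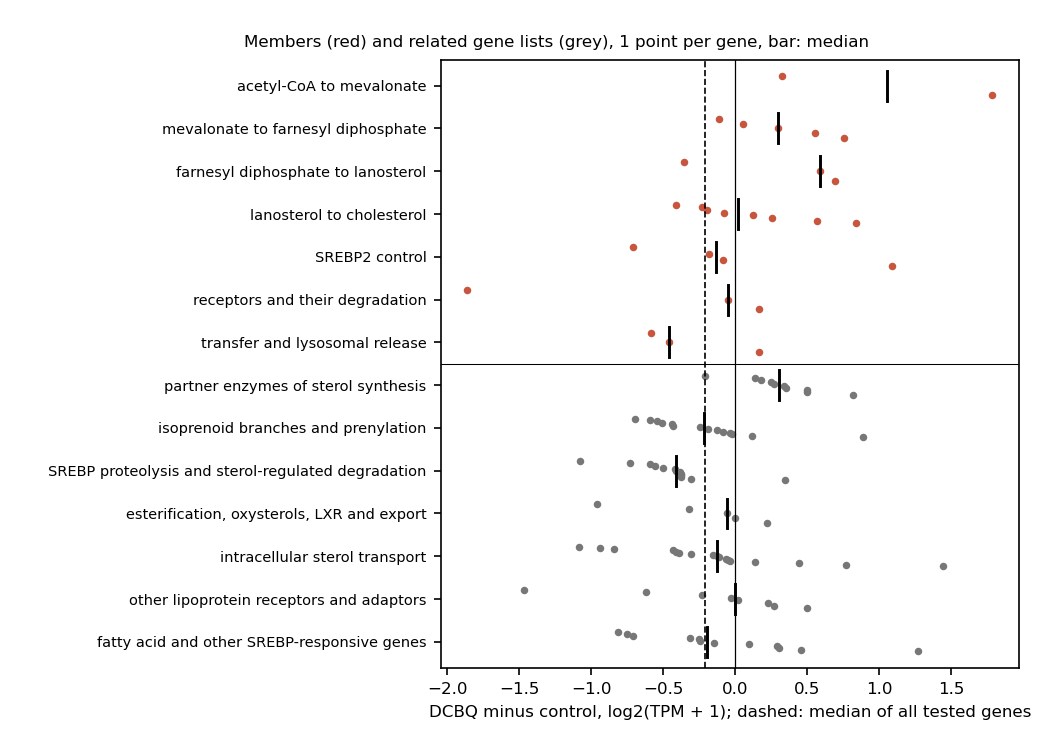
Difference between DCBQ and control on the log2(TPM + 1) scale for each member by pathway stage (red) and for each tested gene of the 7 related lists (grey), with a bar at each median and a dashed line at the median of all tested genes. The partner enzymes centre on 0.30 and the SREBP cleavage and degradation list on -0.41, to the right and left of the dashed line at -0.21.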

How the data were processed

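RNA of 6 SV-HUC-1 libraries was analysed from 1 table of TPM deposited by the authors, 1 column per library. Each column sums to 1000000. Per the submitters' processing notes, reads were handled with StringTie 2.1.7, HISAT2 2.2.1 and Trimmomatic 0.38, with FastQC and DESeq2 1.34.0 also listed, on hg38. Not given in the sources used here are the annotation, the strand setting and the tool behind the TPM values. Symbols were matched through an Ensembl name table (42013) and GENCODE 29 (853), and coordinates, 1-based, from GENCODE 29 on GRCh38.

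A model with group as its only term was fitted with limma 3.58.1 (R 4.3.3, variance trend) to log2(TPM + 1) of the 16734 genes whose mean reached 1 TPM. Tests were two-sided and Benjamini-Hochberg adjusted over those genes. A pseudocount of 1 understates changes of low genes. The fit was tested on simulated data. The members and the lists were chosen with earlier results of these data known, so no list was tested. The text names all members and, from each of the 7 lists, the 3 genes with the smallest p, plus genes that account for a count of 5 or fewer, except some that are not reported here. Steps of the pathway outside the 28 members were not analysed here. There were 15 alternatives: other pseudocounts, filters and scalings, no variance trend, a replicate block, and fits leaving out 1 library at a time.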

Additional observations from a re-analysis of the deposited data

How the results depend on the processing

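Across 15 alternatives, 375 of 419 recomputed member differences kept their direction and their side of the threshold. ACAT2, HMGCS1, MVK, IDI1, FDPS, FDFT1, SQLE, MSMO1, HSD17B7, SCAP, INSIG1, VLDLR and NPC1 did so in every one that tested them, the HMGCS1 difference from 1.69 to 2.02. VLDLR was below the filter of a mean of 5 TPM. Over all tested genes, median-of-ratios scaling gave 3973 higher and 3888 lower calls and quantile normalization 3814 and 3966, against 2247 and 6610 as deposited. Lower calls among members went from 9 to 4 with median-of-ratios scaling, 3 with quantile normalization and 5 without mitochondrially encoded genes. Among the 79 related genes, these first 2 settings gave 27 and 28 higher calls and 23 and 23 lower. Directions turned, with no call, after median-of-ratios scaling for PMVK (0.12), SC5D (0.16), INSIG2 (0.14), LRP8 (0.17), CYP51A1 (0.006), DHCR7 (0.0449) and SREBF2 (0.059). They turned after quantile normalization for PMVK (0.16), SC5D (0.19), INSIG2 (0.19) and LRP8 (0.21), and without mitochondrially encoded genes for the same 4 (0.0126, 0.0509, 0.0381 and 0.0734). With each library left out in turn, INSIG2 ranged from -0.1993 to 0.0466 and LRP8 from -0.1212 to 0.0257, both turning without control replicate 1. Under these 3 settings the median of all genes moved by construction from -0.21 to -0.01, -0.01 and -0.10; other causes were not tested. Deviations of same-numbered libraries had correlations of -0.037, 0.045 and 0.046, and not every library matched its own number best. These values show no clear pairing by replicate number but cannot exclude one, and the labels do not tell. With the replicate block 12 members were higher and 9 lower, and 2156 genes were higher and 6344 lower, with no call changed among the 49 genes followed. Depth is unknown, so no detection limit can be given.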

Other observations

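Of the 85 related genes 6 lay below the filter of a mean of 1 TPM and were not tested. CH25H, which makes 25-hydroxycholesterol, was at 0.101, 0.0765 and 0.157 TPM in control and 0.530, 0.379 and 0.568 TPM in DCBQ. CYP27A1, CYP46A1 and CYP7B1, which also oxidise sterols, averaged 0.365, 0.186 and 0.976 TPM in control and 0.119, 0.129 and 0.738 TPM in DCBQ. SOAT2, the second sterol acyltransferase gene, averaged 0.155 and 0.368 TPM, and IDI2 0.00424 and 0.0494 TPM.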
